A study of Macaca mulatta with 4 samples.

Results

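The HIF-1α ChIP-seq peaks of the 4-week infarct described here are all peaks on chromosomes 1 to 20 of the list called from the 4-week ChIP library against the 4-week input. They number 4100 of the 7399 peaks in that list (55.4%) and of the 20750 peaks in both lists of the series. The others in the 4-week list were on unplaced scaffolds (3264) and on chromosome X (35). ChIP-seq isolates DNA fragments bound by a protein with an antibody, sequences them and calls a peak where they are denser than in input chromatin, which has had no antibody. The group is 1 library from heart tissue of male rhesus macaque (Macaca mulatta) 4 weeks after infarction by LAD ligation (tying off the left anterior descending branch), precipitated with an antibody to HIF-1 alpha, and its control is 1 input library of the same time point. The series, on how copper regulates the activity of HIF-1, also holds a ChIP and an input library at 6 h. The number of animals behind the library is not stated. The tissue is whole infarcted myocardium, so the peaks cannot be ascribed to a cell type.

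HIF-1 is a heterodimeric transcription factor that switches on genes for anaerobic metabolism, angiogenesis and oxygen supply in hypoxia. Its α subunit is hydroxylated and degraded in well oxygenated cells, is stabilised in hypoxic ones, and then pairs with HIF-1β on short response elements, often in promoters and enhancers. In ischaemic heart muscle the VEGF gene is among its known targets. The list holds the position of each peak and no height, score or sequence, so the label HIF-1α rests on the antibody named in the labels and could not be checked against the response element. Genes at the peaks were not analysed here. With 1 ChIP library there is no replicate, and no test was made. Intervals given below are 95% intervals for counting error alone, and they assume independent peaks, an assumption that close neighbours break.

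Peaks were narrow, and their widths differed little from chromosome to chromosome. The median width was 261 bp (interval 257 to 265), with quartiles of 212 and 341 bp, a mean of 297 bp and an SD of 116 bp across peaks. The narrowest width, 199 bp, was shared by 682 peaks (16.6%, 15.5 to 17.8%), so the distribution had a hard lower edge. Above it the numbers thinned steadily, with 586 peaks (14.3%) wider than 400 bp, 254 (6.20%) wider than 500 bp, 34 (0.829%) wider than 750 bp and 5 wider than 1000 bp. All peaks together covered 1.22 Mb, or 456 bp in each Mb of chromosome. The widest 10% of the peaks held 19.1% of the covered sequence.

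**Figure D1:**
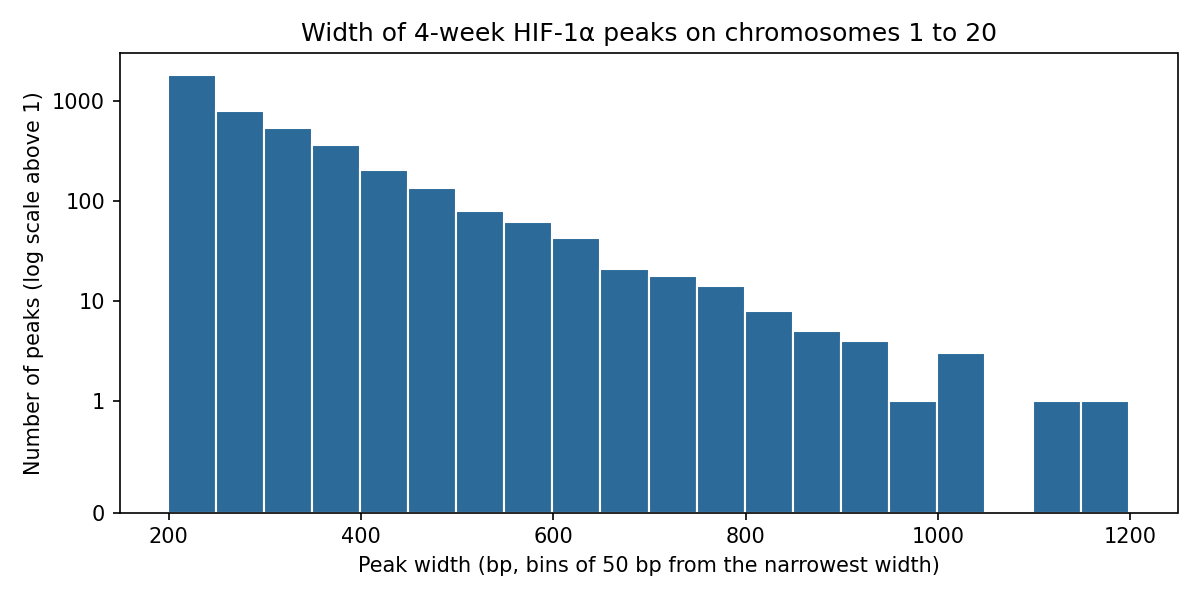
Number of 4-week HIF-1α peaks on chromosomes 1 to 20 (vertical axis, logarithmic above 1) by peak width in bins of 50 bp (horizontal axis, bp). The first bin, 199 to 248 bp, holds 1820 of the 4100 peaks, and numbers fall bin by bin to 1 peak at 949 to 998 bp.

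By chromosome, the median width ran from 243 bp on chromosome 8 (231 to 255) to 276 bp on chromosome 12 (247 to 294). On 19 of the 20 chromosomes the interval held the overall median, and chromosome 8 was the exception. Whether this miss exceeds counting error over 20 intervals was not tested. Chromosome 8 also had a large part of its peaks at the narrowest width (21.3%), as did chromosomes 3 (21.4%) and 5 (20.7%), while chromosome 6 had 12.4%. Between median width and density the Spearman rho was −0.11 over the 20 chromosomes, which share 1 library.

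The 10 widest peaks were not gathered in one place. They lay on chromosomes 16, 4, 5, 6, 7, 19 and 12, with chromosome 7 giving 3 and chromosome 4 giving 2. The widest, at chr16:1949429-1950609 (1181 bp), had its nearest neighbour 169 bp away. Close neighbours also flanked the peak at chr5:1973841-1974878 (1038 bp, neighbour at 221 bp), the one at chr7:139454837-139455850 (1014 bp, 167 bp) and the one at chr12:124376285-124377186 (902 bp, 882 bp). Others stood alone, such as chr4:22012868-22013802 (935 bp), whose nearest peak was 1542 kb away, and chr7:131705348-131706268 (921 bp, nearest peak at 258 kb). Of these 10 peaks, 5 lay within 2 Mb of a chromosome end, against 437 (10.7%) of all 4100 peaks.

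The spacing between neighbouring peaks was uneven. Over the 4080 gaps between successive peaks of a chromosome, the median gap was 312 kb (291 to 327 kb), with quartiles of 93.0 and 825 kb. The mean was 651 kb, or 2.09 times the median, and the SD was 931 kb. The SD was thus 1.43 times the mean, where peaks laid down independently at an even rate would give a ratio near 1. On all 20 chromosomes the mean gap exceeded the median gap, which an even rate would also give. No peaks overlapped, and the shortest gap was 152 bp.

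Very short gaps were frequent for their length. There were 143 gaps of at most 1 kb (3.50%, 2.96 to 4.12%), of which 94 were at most 500 bp. Counted per kb of gap length, there were 250 gaps in the range from 200 to 500 bp, 98 from 500 to 1000 bp, 34 from 1 to 2 kb and 15.3 from 2 to 5 kb. From there the rate changed slowly, to 13.4 at 5 to 10 kb, 11.7 at 10 to 20 kb and 10.1 at 20 to 50 kb. From 200 bp to 50 kb the rate thus fell steeply up to the range from 2 to 5 kb and slowly after it. Beyond 50 kb it fell further, to 7.22 at 50 to 100 kb.

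**Figure D2:**
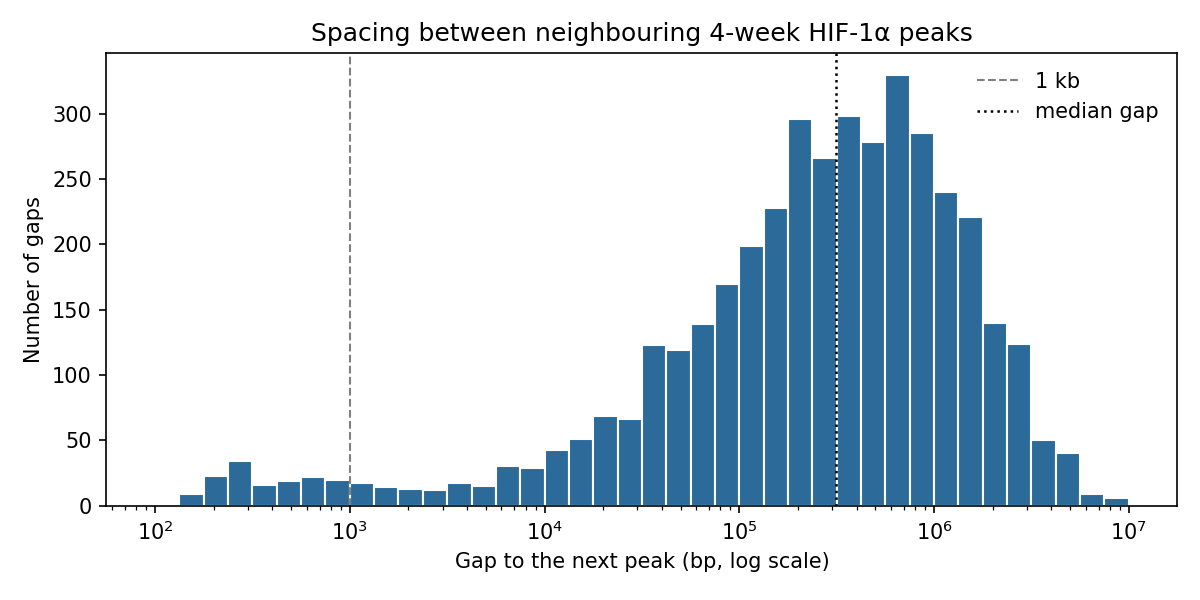
Number of gaps between neighbouring 4-week HIF-1α peaks (vertical axis) by gap length in bp (horizontal axis, logarithmic). The main body is centred near the median of 312 kb (dotted line), and a low tail runs down to 152 bp, with 143 gaps at or under 1 kb (dashed line).

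The short gaps joined peaks almost entirely in pairs. Peaks within 1 kb of one another formed 137 groups with 280 peaks, of which 131 were pairs and 6 were triplets, and every chromosome had at least 1. Their median span was 1044 bp. The closest pairs were on chromosome 1, where chr1:210746748-210747026 and chr1:210747179-210747377 were 152 bp apart, and on chromosome 12, where chr12:36119201-36119545 and chr12:36119700-36119977 were 154 bp apart. Then followed pairs on chromosome 2 (166 bp), chromosome 7 (167 bp) and chromosome 5 (168 bp).

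Triplets were found on chromosome 1 at chr1:495821-497596 and chr1:204837527-204840690, on chromosome 7 at chr7:63155717-63157479 and chr7:116531138-116533444, on chromosome 11 at chr11:78567045-78568318 and on chromosome 16 at chr16:1949429-1952299. In the chromosome 16 triplet peaks covered 85.8% of 2871 bp, and it included the widest peak of all. In the second chromosome 1 triplet they covered 44.0% of 3164 bp.

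Peaks with a near neighbour had a higher median width. The median width was 283 bp (273 to 306) for the 280 peaks with another within 1 kb, against 257 bp (245 to 277) at 1 to 10 kb, 261 bp (255 to 268) at 10 to 100 kb, 259 bp (255 to 265) at 100 kb to 1 Mb and 243 bp (234 to 259) for the 270 peaks more than 1 Mb from any other. Among peaks wider than 500 bp, 12.99% (9.11 to 17.8%) had another within 1 kb, against 6.42% (5.67 to 7.24%) of the others. The interval of the closest class overlapped that of peaks at 1 to 10 kb and lay above the other 3, and beyond 1 kb the intervals overlapped one another.

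Density differed by a factor of 4.17 between the densest and the sparsest chromosome. The overall value was 1.53 peaks per Mb (1.49 to 1.58) over 2671 Mb, with each chromosome measured to the last peak of the series on it, a lower bound of its length. Chromosomes 19 (3.81 per Mb, 3.31 to 4.37), 16 (2.85, 2.49 to 3.25) and 20 (2.62, 2.26 to 3.01) were the densest. Their intervals lay above those of the other chromosomes, except that those of chromosomes 16 and 20 overlapped that of chromosome 10 (2.19, 1.90 to 2.51). Chromosomes 18 (0.914, 0.704 to 1.17), 5 (1.05, 0.908 to 1.21) and 6 (1.12, 0.973 to 1.29) were the sparsest. In all, 15 of the 20 chromosomes had between 1 and 2 peaks per Mb. Shorter chromosomes tended to be denser (Spearman rho −0.43, Pearson r −0.56 over 20 chromosomes), but chromosome 18, among the shortest with 70.0 Mb, was the sparsest of all.

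**Figure D3:**
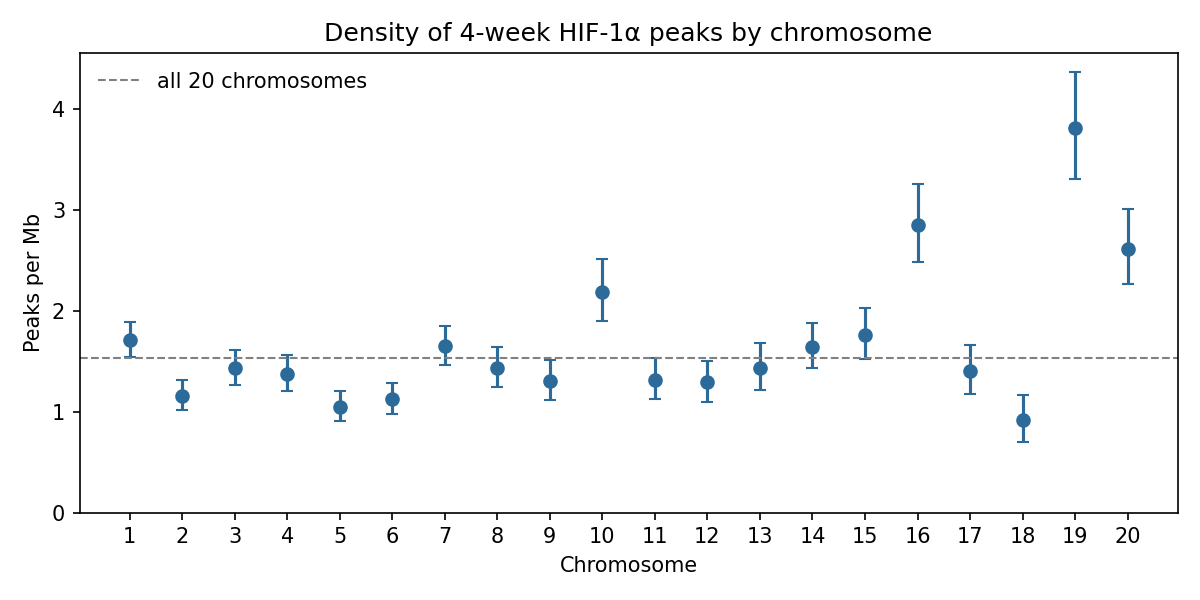
Peaks per Mb (vertical axis) of the 4-week HIF-1α list on each numbered chromosome (horizontal axis), with exact Poisson 95% intervals as bars and the value over all 20 chromosomes as a dashed line. Chromosomes 19, 16, 20 and 10 lie above 2 peaks per Mb, and chromosome 18 lies below 1.

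Within chromosomes, most 1 Mb windows held few peaks and a small number held many. The 2659 whole windows had a mean of 1.52 peaks, an SD of 2.0 across windows and a median of 1. No peak was called in 908 windows (34.1%, 32.3 to 36.0%), 745 (28.0%) had 1 and 476 (17.9%) had 2. At the other extreme, 151 windows (5.68%) held at least 5 peaks and 20 (0.752%) held at least 10. The fullest 1% of windows contained 8.78% of the peaks, the fullest 10% contained 37.8%, and the fullest 15.9% contained 50% of them.

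The variance of the window counts was 2.64 times their mean, where counts laid down independently at an even rate would give a ratio near 1. All 20 chromosomes had a ratio above 1, from 1.18 on chromosome 18, 1.28 on chromosome 2 and 1.33 on chromosome 11 to 3.35 on chromosome 20, 3.99 on chromosome 19 and 6.52 on chromosome 8. On chromosomes 10 and 18 the fullest window was the last part window (9 and 6 peaks), which these ratios leave out. The low place of chromosome 18 therefore holds for whole windows only. Leaving out the densest window lowered the ratio on all 20 chromosomes. The largest part of the value of chromosome 8 came from 1 window, without which it was 2.30. That was still above all but chromosomes 19 (2.93) and 20 (2.86) without theirs. The ratio fell from 3.24 to 1.49 on chromosome 16 and from 3.10 to 1.79 on chromosome 1. It fell from 3.32 to 2.11 on chromosome 15 and from 2.50 to 1.63 on chromosome 5. Over all chromosomes the ratio was 1.87 without the densest window of each and 1.79 without windows that reach within 2 Mb of an end.

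**Figure D4:**
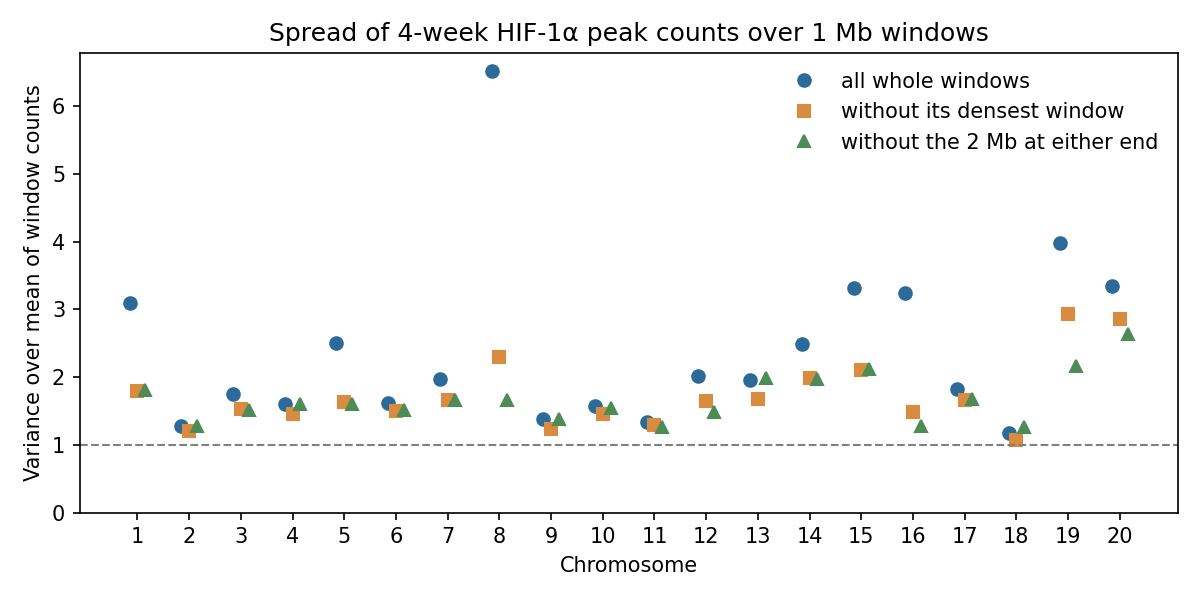
Variance over mean of the number of 4-week HIF-1α peaks in whole 1 Mb windows (vertical axis) by chromosome (horizontal axis), for all windows (circles), without the densest window of the chromosome (squares) and without windows that reach within 2 Mb of an end (triangles). The dashed line marks 1. Without its densest window chromosome 8 falls from 6.52 to 2.30, and without theirs chromosomes 19 and 20 stay above 2.5. Without the ends, chromosomes 8, 19 and 20 are at 1.67, 2.16 and 2.64.

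The densest windows lay mostly toward chromosome ends. The 20 windows with at least 10 peaks were on 11 chromosomes and held 293 peaks (7.15%), and 14 of them began or ended less than 2 Mb from an end. Such end windows were 100 of the 2679 windows. Density fell with distance from the nearer end, from 6 peaks per Mb in the outermost Mb (5.26 to 6.81) to 2.57 at 2 to 5 Mb (2.29 to 2.87), 1.5 at 10 to 20 Mb (1.38 to 1.63) and 1.28 farther in (1.23 to 1.33). These values pool all chromosomes, and short chromosomes make up a larger part of the outer zones than of the innermost one. How much this adds to the fall was not tested. Within chromosomes, the outer 2 Mb at both ends together were denser than the rest on 19 of 20. Chromosome 13 was the exception, with 0.75 against 1.46 peaks per Mb, and it remained so with its extent taken from the 4-week list alone (1 against 1.47).

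The ends of one chromosome could differ greatly. Chromosome 8 had 7 peaks in its first 2 Mb and 43 in its last 2 Mb. The opposite order was seen on chromosome 1 (29 first, 5 last), chromosome 15 (22 and 4), chromosome 5 (20 and 2), chromosome 14 (18 and 2) and chromosome 19 (36 and 7). Chromosome 2 had none in its first 2 Mb and 7 in its last 2 Mb. Chromosome 10 was nearly even, with 12 and 13.

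**Figure D5:**
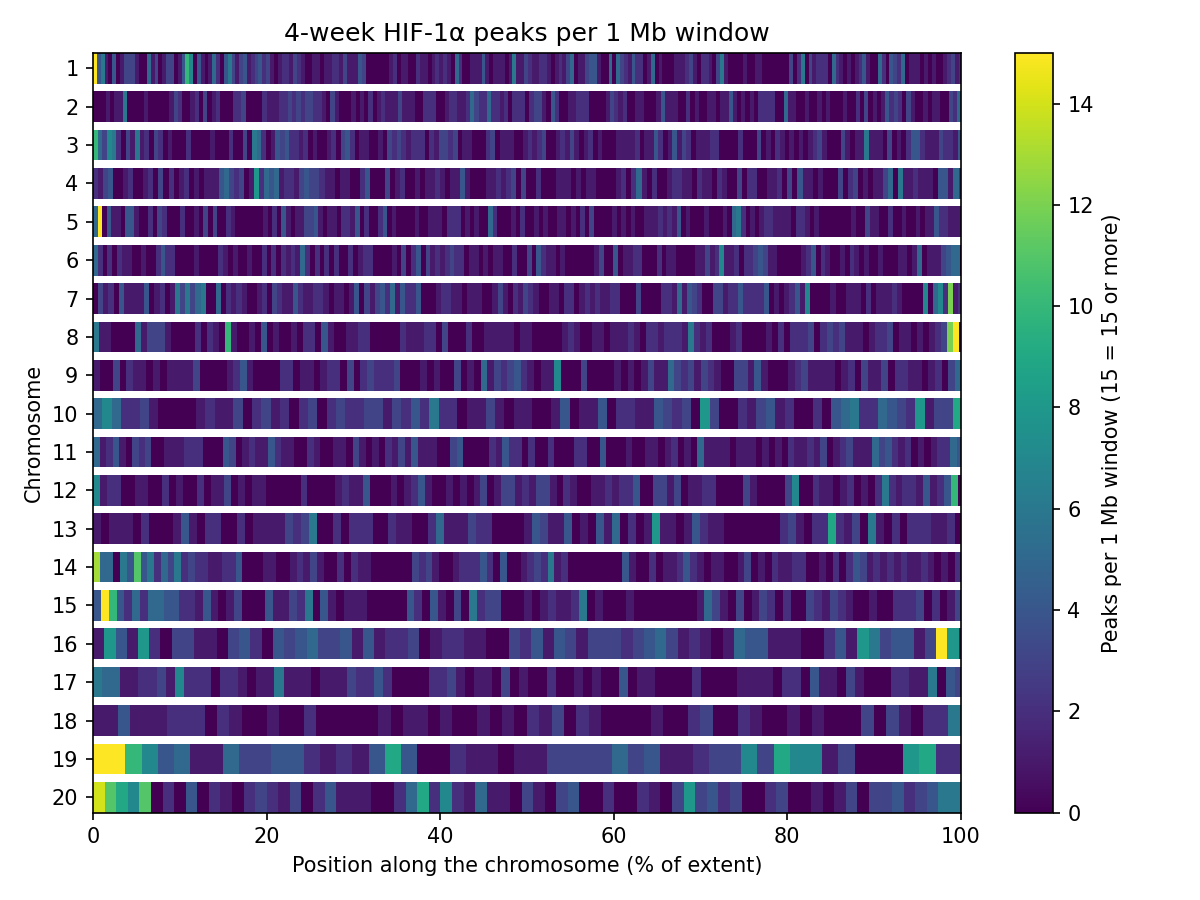
Number of 4-week HIF-1α peaks in each 1 Mb window (colour, capped at 15) along chromosomes 1 to 20 (rows), with position given as a percentage of the chromosome extent (horizontal axis). Bright windows sit at the right end of chromosomes 8 and 16 and at the left end of chromosomes 1, 5, 15, 19 and 20, and most of the rest of each row is dark.

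Dense stretches were then defined as runs of at least 4 peaks with no gap above 50 kb. There were 36 such stretches on 13 chromosomes, with 199 peaks (4.85%, 4.22 to 5.56%) in 3.11 Mb, or 0.117% of the chromosome extent. They held 4 peaks in 10 cases, 5 in 10, 6 in 11, 7 in 3, and 10 and 12 in 1 each, over spans of 10.6 to 228 kb with a median of 84.4 kb. Peaks covered a median of 1.75% of a stretch. Of the 36, 21 were within 2 Mb of a chromosome end and 7 were at least 10 Mb from one. The zone within 2 Mb of an end was 3.0% of the extent and held 437 (10.7%) of all peaks. Peaks in dense stretches had a median width of 274 bp (262 to 305) against 260 bp (257 to 264) outside, and 10.1% of them against 17.0% were at the narrowest width. Chromosomes 3, 6, 9, 11, 12, 13 and 18 had none.

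Chromosome 8 had the fullest window of the list. Its window from 143000001 to 144000000 held 32 peaks, which is 15.5% of the 207 peaks of the chromosome and 22.3 times its mean window. The window before it held 12. The end region held 4 separate stretches, at chr8:143183135-143235309 (6 peaks), chr8:143285311-143384988 (10 peaks in 99.7 kb), chr8:143573199-143621936 (7 peaks in 48.7 kb) and chr8:143736930-143804600 (5 peaks). All lay in the fullest window, and other peaks of the end region were in no stretch. The remaining stretch lay far from the ends, at chr8:22483022-22616417 with 6 peaks, in a window of 10. Outside the outer 2 Mb at either end chromosome 8 had 1.12 peaks per Mb, against 12.5 within them, and 38.2% of its windows were empty.

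Chromosome 1 carried the longest stretch by number of peaks. At chr1:213397-440944 there were 12 peaks in 228 kb, and a second stretch of 5 lay just before it at chr1:58602-159835, both in the first window, which held 25 peaks or 14.7 times the mean window of the chromosome. The third, at chr1:204830111-204840690, was the most compact of all 36 stretches, with 5 peaks in 10.6 kb, of which they covered 23.9%. Its peaks were wide, with a median of 470 bp. The window from 24000001 to 25000000, far from an end, held 10 peaks and the next one 7.

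Chromosome 16 had the most stretches, with 6 that held 30 of its 220 peaks. Its fullest window, from 75000001 to 76000000, had 23 peaks, and stretches at chr16:74981311-75073108 (6 peaks), chr16:75150143-75255838 (6) and chr16:75664956-75756992 (5) lay in or across it. The first of these consisted of narrow peaks, with a median width of 200 bp, and the second of wider ones, with a median of 381 bp. Near the other end, the stretch at chr16:1934224-1952299 held 5 peaks in 18.1 kb with a median width of 509 bp, the highest median of any stretch. The other 2, with 4 peaks each, were at chr16:4713924-4776589 and chr16:49015553-49107235. Of the windows of chromosome 16, 11.7% were empty (5.49 to 21.03%).

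Chromosome 19 was dense over much of its length. Its median gap was 110 kb (79.5 to 170), the shortest of any chromosome, 14.8% of its gaps were at most 10 kb (10.2 to 20.4%), and 11.3% of its windows were empty. The first 4 windows held 20, 16, 10 and 7 peaks. Stretches in this region were at chr19:374739-454322 (5 peaks), chr19:753541-891410 (7), chr19:956849-1071023 (6) and chr19:1179319-1293727 (6). A further one of 6 peaks was at chr19:50764404-50883945. A run of 3 windows from 42000001 to 45000000 held 9, 7 and 7 peaks without forming a stretch.

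On chromosome 20 the first 5 windows held 14, 11, 9, 7 and 11 peaks, which is 52 of the 196 peaks of the chromosome. They contained stretches at chr20:629407-709674 (6 peaks), chr20:1736865-1820041 (4) and chr20:4620496-4698281 (4), and another of 4 peaks lay inside the chromosome at chr20:28685048-28770623. Of its windows, 27.0% were empty (17.4 to 38.6%), an interval that overlapped those of chromosomes 16 (5.49 to 21.03%) and 19 (4.27 to 23.0%). Its median gap of 149 kb stood beside a mean of 383 kb. Chromosome 10, also above 2 peaks per Mb, was more even, with a variance over mean of 1.58, 20.7% empty windows, no window with 10 peaks and 1 stretch of 4 at chr10:92230950-92292835. Its fullest window was the last, from 92000001, with 9 peaks, a part window that this variance over mean leaves out.

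Chromosomes 15, 14, 5 and 7 each had at least 1 window with 10 or more peaks and 2 stretches. On chromosome 15 the window from 1000001 held 18 peaks, 10.3 times its mean, and the next held 10, with a stretch of 6 at chr15:1019473-1139638 and one of 4 at chr15:48602003-48654215. On chromosome 14 the first window held 13 peaks with a stretch of 5 at chr14:651313-692946, in which the median width was 485 bp. A second stretch, at chr14:6954317-6983465, put 7 peaks into 29.1 kb, so that density there was 24.0 peaks per 100 kb. On chromosome 5, the second sparsest, the window from 1000001 held 15 peaks, 14.3 times its mean, with stretches at chr5:1150681-1232621 (5) and chr5:1783653-1872521 (4). On chromosome 7 the window from 167000001 held 12, with 6 of them at chr7:167843446-167938547, and a stretch of 5 lay at chr7:162520622-162632683.

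Chromosomes 2, 4 and 17 each had 1 or 2 stretches and no window with 10 peaks. Chromosome 2 had 1 stretch, at chr2:7135967-7206155, whose 6 peaks made up the whole of its fullest window. Chromosome 4 had stretches at chr4:160817133-160935631 (5 peaks) and chr4:32529045-32606887 (4), both over 10 Mb from an end. Its fullest window, from 32000001, held 8 peaks, and 2.12% of its gaps were at most 10 kb (0.691 to 4.87%). Chromosome 17 had 4 peaks at chr17:2341562-2409183, while its fullest window, from 9000001, held 7.

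The 7 chromosomes without a stretch differed in density and in how even they were. Chromosome 3 had 10 peaks in its first window, and chromosome 12 had 10 in the window from 124000001, each with gaps too long to form a stretch. On chromosomes 6, 9 and 13 the fullest windows lay inside the chromosome, from 130000001 (7 peaks), 69000001 (7) and 92000001 (9). Chromosome 11 was flat, with no window above 5 peaks and 4 windows at that number, the first of them at the start of the chromosome (1 to 1000000). Chromosome 18 had 64 peaks, a median gap of 594 kb (345 to 942), 47.8% empty windows and 1 gap of at most 10 kb, and its fullest window was the last, from 69000001, with 6 peaks.

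Long stretches without a peak were the counterpart of the dense ones. Gaps above 2 Mb were 298 of 4080 (7.30%) but made up 36.5% of the summed gap length, and 27 gaps exceeded 5 Mb. The longest was 9.30 Mb on chromosome 15, between the peaks at chr15:68367712-68368010 and chr15:77672008-77672282. Next came 8.98 Mb on chromosome 14 (from 69231820 to 78211741), 8.47 Mb on chromosome 1 (from 173383273 to 181851232), 8.40 Mb on chromosome 5 (from 157081648 to 165480486) and 7.98 Mb on chromosome 13 (from 78191033 to 86171390). In windows, chromosomes 14 and 15 each had a run of 8 empty ones, and runs of at least 5 numbered 16 on 10 chromosomes. Sequence to which reads cannot be mapped was not marked in the files, so its part in these gaps was not tested.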

How the data were processed

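The peak list was made by the authors from the 4-week HIF-1α ChIP library against the 4-week input, per the file names. Bowtie2 2.0 and MACS2 are named in the submitters' processing notes; the sources used here do not give their settings, the genome build, filters, or whether animals were pooled. The list has 3 columns (sequence, start, end), so read depth and peak strength are unknown. Starts were read as counted from 0 and are printed counted from 1; if the authors had already counted from 1, starts are 1 bp lower and widths 1 bp greater. No peak was filtered. A gap is the distance from the end of a peak to the start of the next on the same chromosome. Peaks were assigned to 1 Mb windows from position 1 by their midpoint, and the last part window of a chromosome, left out of the spread, was kept for dense windows. Intervals are exact Clopper-Pearson for shares, exact Poisson for densities and order-statistic for medians, all at 95%. As the build of the list is not stated, it could not be matched to that of the reference table of genes, which was not used, nor was a genome sequence.

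The members and the lists of items were chosen with earlier results of these data known. Named were the densest window and the fullest stretch of each chromosome, the 10 fullest windows and stretches, the 10 widest peaks, the 5 longest and 5 shortest gaps and the extreme chromosomes. The other stretches, the triplets and the runs of windows were named after their values were seen. The scripts were tested on simulated lists. Tables were handled with pandas 2.3.3 and numpy 2.4.6 under Python 3.11.15, intervals computed with scipy 1.17.1, and plots drawn with matplotlib 3.10.9.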

Additional observations from a re-analysis of the deposited data

How the results depend on the processing

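Among 53 values under other settings, 19 left the interval of the main value or, for numbers and ratios, differed from it by over 1.5 times, and 34 did not. All 9 alternatives for the variance over mean of the windows (1.79 to 3.58) stayed within that limit. So did all 3 for the ratio of densest to sparsest chromosome (3.98 to 4.16). The lowest variance over mean, 1.79, was without windows that reach within 2 Mb of an end. The main value was 2.64 and an even rate gives about 1, so a large part of the excess lay in those windows. The widest 50% of the list by construction held 2050 peaks with a median width of 341 bp, a median gap of 629.5 kb, 0.767 peaks per Mb and 55.8% empty windows. It left 5 windows with at least 10 peaks, 13 dense stretches, 4.48% of gaps within 10 kb and 2.71% within 1 kb, and put 12.1% of peaks within 2 Mb of an end against 10.7% in the whole list. Merging peaks within 1 kb gave 3957 peaks, a median gap of 329 kb, 1.48 peaks per Mb and 3.73% of gaps within 10 kb, as follows from taking out the shortest gaps. Empty windows were 55.1% at 0.5 Mb and 14.7% at 2 Mb, since window size sets this share. Windows with at least 8 peaks numbered 37 and with at least 15 numbered 7. Dense stretches numbered 10 with gaps up to 20 kb and 79 with gaps up to 100 kb. By construction the 10 stretches lay in stretches of the 36. How many are found depends on the gap allowed. Windows shifted by 0.5 Mb leave out the first 0.5 Mb of each chromosome. The shares within 1 kb and within 2 Mb of an end, and the spread without the densest windows, were chosen after the data were seen. No paired analysis was possible because the list comes from 1 ChIP library. Depth is unknown, so the number of sites missed for lack of reads cannot be given.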

Other observations

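The rows of the list are not in chromosomal order, and width changed along them. In the first 20% of the rows on chromosomes 1 to 20 the median width was 277 bp (265 to 287), 8.05% of peaks were at the narrowest width and 10.5% were wider than 500 bp. In the rows from 60 to 80% of the list the median was 245 bp (238 to 255) and 25.5% were at the narrowest width. In the last 20% the median was 269 bp (263 to 274), 17.6% were at the narrowest width and 3.05% were wider than 500 bp. The part wider than 500 bp fell from each 20% of the rows to the next (10.5, 8.90, 5.37, 3.17 and 3.05%), while the median did not. What the row order stands for is not given in the sources used here, and its relation to peak strength was not tested.

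Width also rose slightly with the number of peaks in the window. The median was 250 bp (242 to 259) for the 747 peaks alone in their window and 269 bp (257 to 288) for the 293 peaks in windows of at least 10, and the intervals overlapped.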
